A study of Mus musculus with 12 samples.

Results

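The 6-hour response to lipopolysaccharide (LPS) was measured in wild-type (wt) mesenchymal cells of the mouse small intestine, across all genes. It rests on 6 of the 12 libraries of the series, 3 from untreated and 3 from LPS-treated wt cells. Of 14907 genes listed in any table of the series, 14514 had values in these 6 libraries, and 12280 of them passed a filter of a mean of at least 10 in either group and were tested. The cells were primary cells of strain C57/Bl6, grown to passage 3, sorted for GFP and kept overnight without serum. LPS from E. coli was then added at 2 µg/ml for 6 hours. The remaining 6 libraries, used here only for side values, came from MyD88ko cells (ColVIcre-MyD88F/F-RosamTmG) without and with LPS, given in the same way. The genotype label of the wt cells is MyD88F/F-RosamTmG, with floxed Myd88 alleles and a fluorescent reporter but no Cre, whereas the text on the series' design calls them ColVIcre+. These conflict, and which holds was not settled here. RosamTmG is a reporter that switches from red to green fluorescence after Cre acts, and ColVIcre is a Cre driven by collagen VI sequences, active in mesenchymal cells. The labels number the replicates but do not say whether they are separate animals or cultures, so p-values measure the spread between these libraries, which may be technical.

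LPS is a glycolipid of the outer membrane of Gram-negative bacteria. Cells sense it with the receptor TLR4 and its partners CD14 and MD-2 (Ly96). One branch from the receptor runs through the adaptor MyD88 to the kinases that release NF-κB and activate AP-1, and the other runs through the adaptor TRIF (Ticam1) to IRF3 and interferon. The intestinal mesenchyme holds fibroblasts, myofibroblasts and smooth-muscle cells, which build the matrix under the epithelium, supply Wnt and BMP signals to the stem-cell niche and recruit leukocytes through chemokines.

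Each library is a 3′ library, in which reads come from the end of a transcript, so a value does not depend on transcript length in the way of whole-transcript counts. Values are normalized read counts. Estimated depth ran from 2.503 to 4.649 megareads of counted reads per wt library. The labels give the LPS-treated cells of either genotype a later run of library numbers than the untreated cells, so the treatment and the library series cannot be told apart. Untreated replicate 2 stood apart from replicates 1 and 3. On the second principal component, which held 15.8% of the variance of the 6 libraries, it stood at −55.2 against 23.2 and 17.4. Summed over a list of 27 epithelial markers, 14 of which are in the wt table, the level was 645 and 1182 in untreated replicates 1 and 3 but 83 in replicate 2. It was 81 to 92 in the LPS libraries and 71 to 86 in the MyD88ko libraries. The 7 listed of 13 luminal-type epithelial markers summed to 1421 and 537 in replicates 1 and 3, to 115 in replicate 2 and to 122 to 189 with LPS. The 18 mesenchymal markers were all present, at summed levels of 76927, 139185 and 68874 untreated and 108322 to 176728 with LPS. Each result was therefore also read against untreated replicate 2 as the only untreated library. In such bulk samples fewer cells of a type and less RNA per cell cannot be told apart.

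With LPS, 1093 genes were higher and 1102 lower (limma, Benjamini-Hochberg adjusted p under 0.05), that is 8.9% and 8.97% of those tested and 17.9% together. At least 4-fold changes were called for 131 higher and 187 lower genes. The genes called lower had a median level of 280 normalized reads in untreated cells, against 96.7 for those called higher. With replicate 2 as the only untreated library, a fit with less information, 471 and 314 of these genes were still called in the same direction. The median log2 fold change over all genes tested was 0.009.

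**Figure D1:**
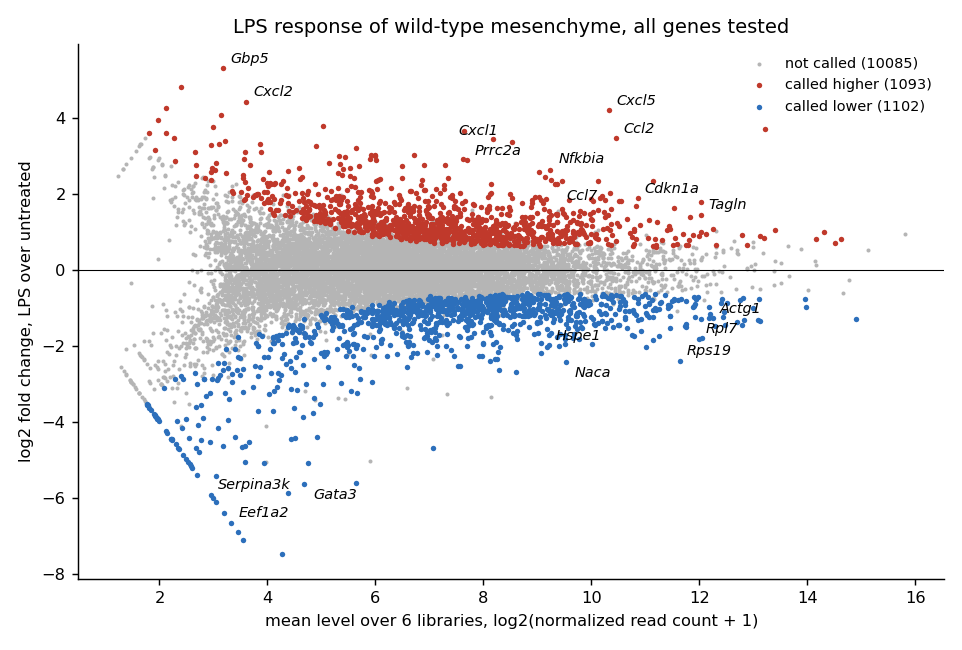
Log2 fold change of LPS over untreated wt cells (vertical) against the mean level of each gene on a log2(normalized read count + 1) axis (horizontal), 1 point per gene tested. Red points are the 1093 genes called higher and blue points the 1102 called lower; Cxcl5 and Ccl2 lie high at high expression, and the straight edge at the lower left holds genes listed at 0 in all LPS libraries.

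Of 24 tested genes of LPS sensing and signal relay, 2 were called higher and 0 lower (8.33% and 0%, against 8.9% and 8.97% over all genes), with a median log2 fold change of 0.00. Myd88, the adaptor itself, had 99, 98 and 103 normalized reads in the untreated and 171, 204 and 213 in the LPS libraries. The groups did not overlap, as was so with LPS higher for 2155 of all 12280 genes tested. Myd88 rose by 0.96 ± 0.23 (SE) on the log2 scale (limma adjusted p = 0.00981). Ticam1, which encodes TRIF, rose from 23, 36 and 27 to 101, 55 and 63 (1.29 ± 0.35, adjusted p = 0.0194). Neither call held with untreated replicate 2 alone (adjusted p = 0.089 and 0.263), and Ticam1 was called in 4 of the 6 fits without 1 library. Tlr4, the receptor, was not called, at 174 ± 55.1 untreated and 99.7 ± 32.5 with LPS (SD, n = 3 each; limma adjusted p = 0.0819). Cd14, the co-receptor, stood near the floor in all 6 libraries, between 6 and 14 (adjusted p = 0.487).

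Chemokines, the secreted proteins that guide leukocytes, had the largest share called higher of the 27 lists. Of 15 tested members, 10 were called higher and 1 lower, against 8.9% and 8.97% over all genes, and their median log2 fold change was 2.02. Against untreated replicate 2 the median was 2.63. Several ligands that draw neutrophils were among them. Cxcl5 had 464, 155 and 380 normalized reads untreated and 6242, 6439 and 4193 with LPS (log2 fold change 4.19 ± 0.37, limma adjusted p = 0.000103). Cxcl1 had 125, 54 and 222 untreated and 948, 1209 and 1462 with LPS (3.36 ± 0.44, adjusted p = 0.00129). Cxcl2 was near the floor untreated, at 1, 2 and 2, and reached 57, 51 and 57 (4.42 ± 0.56, adjusted p = 0.000163). No LPS library overlapped an untreated one for these 3 genes, as was so with LPS higher for 2155 of all 12280 genes tested. Untreated replicate 2 was the lowest of the untreated libraries for Cxcl5 and Cxcl1.

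Chemokines for monocytes and lymphocytes rose as well. Ccl2, which draws monocytes, went from 500, 244 and 616 to 4765, 5022 and 4204 (3.46 ± 0.29, limma adjusted p = 2.1e-05). Its neighbour Ccl7 went from 347, 231 and 343 to 1563, 1663 and 1143 (2.25 ± 0.23, adjusted p = 4.1e-05). Both groups of 3 libraries were well apart for either gene. Cxcl10, an interferon-inducible ligand of CXCR3, had 12, 10 and 19 against 84, 177 and 95 (3.00 ± 0.39, adjusted p = 0.000192). Ccl20, a ligand of CCR6, had 1, 0 and 4 against 23, 27 and 36 (3.76 ± 0.78, adjusted p = 0.00434). The other members called higher were Cxcl16, Cx3cl1 and Ccl8, and the calls of Cx3cl1 and Ccl8 were lost with replicate 2 alone (adjusted p = 0.0934 and 0.0917). Cxcl12, a constitutive stromal chemokine that retains stem and progenitor cells, went the other way. It fell from 3284, 2718 and 2920 to 1206, 1129 and 1186 (−1.34 ± 0.19, adjusted p = 0.000344), and was picked out here after its values were seen, as the only chemokine called lower.

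**Figure D2:**
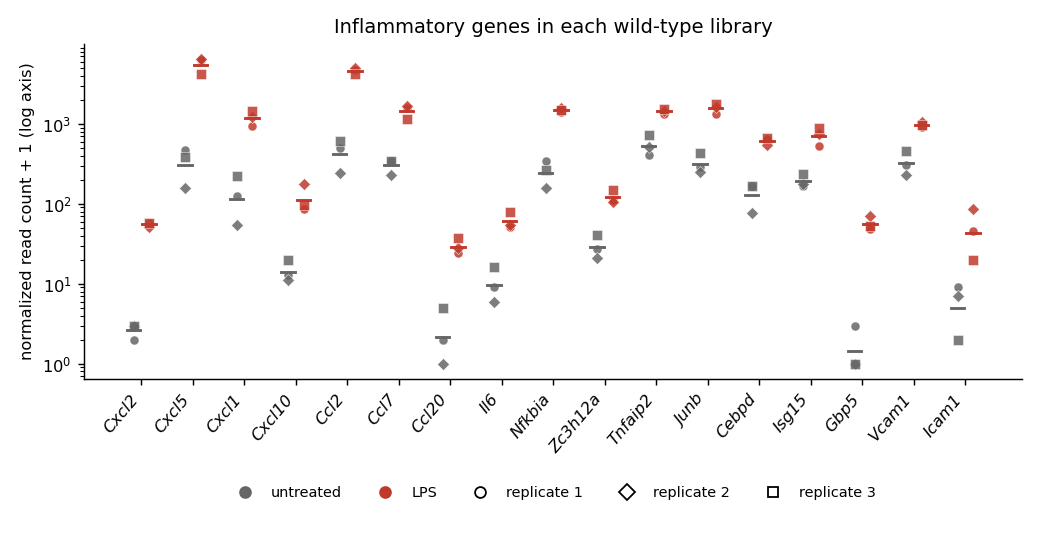
Normalized read count + 1 on a log axis for 17 inflammatory genes, grey for untreated and red for LPS, with a circle, diamond or square for replicate 1, 2 or 3 and a bar at the mean of the log values. For all 17 genes every LPS library lies above every untreated one, as for 2155 of the 12280 genes tested. The grey diamond of replicate 2 is often the lowest.

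Upstream stretches of some of these genes hold known inflammatory motifs, shown here because the genes moved together. Of the 10 chemokines called higher 6 had a promoter in the table; Ccl2, Ccl7, Cxcl5 and Cxcl16 had no entry. Sequences are RefSeq's, on GRCm38.p6, and the 250 bases before each start were searched on both strands. The NF-κB type motif was GGG, any 2 bases, then TTTCC; the interferon response type was GAAA, any 2 bases, then GAAA. Promoters were found for 8643 of 11213 protein-coding genes tested, some with more than 1 start, and 1.79% and 3.24% of these genes held the respective motif. Among matched genes called higher the shares were 3.18% and 5.06%, and among those called lower 1.45% and 3.03%. Of 60 matched genes called at least 4-fold higher, 7 held the NF-κB type motif, or 11.7%: Ccl20, Cxcl1, Cxcl2, Gbp5, Il6, Nfkbia and Serpina3g. Capitals mark the motif, read 5′ to 3′ along the gene's strand, and a motif on the other strand appears as its reverse complement.

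Cxcl1 (chr5:90891131-90891208, plus strand): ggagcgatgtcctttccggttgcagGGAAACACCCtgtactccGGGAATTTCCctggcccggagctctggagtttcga

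Cxcl2 (chr5:90903777-90903855, plus strand): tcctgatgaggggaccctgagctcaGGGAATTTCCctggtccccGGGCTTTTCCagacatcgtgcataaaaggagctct

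Ccl20 (chr1:83116661-83116720, plus strand): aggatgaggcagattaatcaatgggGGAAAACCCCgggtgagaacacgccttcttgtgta

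Nfkbia (chr12:55492648-55492701, minus strand): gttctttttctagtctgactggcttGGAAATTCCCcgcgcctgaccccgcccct

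Il6 (chr5:30013045-30013104, plus strand): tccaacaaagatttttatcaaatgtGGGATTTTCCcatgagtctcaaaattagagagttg

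In Cxcl1 and Cxcl2, 2 copies of the motif lie within 100 bases of the start, and in Nfkbia the copy begins 29 bases before it. Of 12 matched interferon-stimulated genes called higher, 8 held the interferon response type motif (66.7%, against 3.24% over all matched genes). The share among listed interferon genes not called was not counted, so this count does not tie the motif to the response. The motif is shown for Isg15, Ifit1, Bst2 and, among the chemokines, Cxcl10. Gbp5 held a copy of both kinds. A match is a run of letters and no evidence that a factor bound there.

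Isg15 (chr4:156200850-156200921, minus strand): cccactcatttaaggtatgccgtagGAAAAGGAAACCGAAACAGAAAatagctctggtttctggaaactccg

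Ifit1 (chr19:34640760-34640838, plus strand): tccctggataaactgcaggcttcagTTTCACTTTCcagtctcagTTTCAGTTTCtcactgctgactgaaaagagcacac

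Bst2 (chr8:71537562-71537627, minus strand): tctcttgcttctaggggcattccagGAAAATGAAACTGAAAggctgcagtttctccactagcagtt

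Cxcl10 (chr5:92349068-92349127, minus strand): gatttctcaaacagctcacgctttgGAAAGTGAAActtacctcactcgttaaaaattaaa

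Gbp5 (chr3:142496744-142496891, plus strand): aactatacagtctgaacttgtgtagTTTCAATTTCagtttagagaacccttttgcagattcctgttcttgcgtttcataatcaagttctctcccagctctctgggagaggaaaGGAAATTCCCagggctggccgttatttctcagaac

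Genes of the NF-κB loop rose next to the chemokines. Of 20 tested genes in a list of mainly subunits and feedback inhibitors, 8 were called higher and 0 lower (40% and 0%, against 8.9% and 8.97% over all genes). Their median log2 fold change was 0.92, and 0.84 against untreated replicate 2. Among the 8 called are Sod2 and Tnfaip2, which are neither subunits nor feedback inhibitors. Sod2 is also counted among the antioxidant genes. Nfkbia, which encodes the inhibitor IκBα and is itself an NF-κB target, had 343, 157 and 261 against 1394, 1578 and 1498 (2.62 ± 0.26, limma adjusted p = 3.28e-05). Zc3h12a, the RNase Regnase-1 that degrades cytokine messages, had 26, 20 and 40 against 111, 104 and 150 (2.09 ± 0.33, adjusted p = 0.000738). Tnfaip2 and Tnip1 rose by 1.42 ± 0.23 and 1.34 ± 0.23. The other members called were Sod2, Nfkb2, Nfkbiz (adjusted p = 0.113 with replicate 2 alone) and Bcl3. Nfkb1, with 45, 67 and 57 against 66, 78 and 44, and Tnfaip3, which encodes the deubiquitinase A20 and had 7, 3 and 6 against 7, 16 and 9, were not called.

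Of 13 tested cytokines only Il6 was called higher and only Il1rn lower (7.69% in either direction, against 8.9% and 8.97% over all genes). Il6, a cytokine of the acute phase, had 8, 5 and 15 normalized reads untreated and 50, 54 and 77 with LPS (2.66 ± 0.46, limma adjusted p = 0.00143). Il1rn, the antagonist of the interleukin-1 receptor, fell from 57, 93 and 117 to 19, 23 and 41 (−1.67 ± 0.38, adjusted p = 0.00745); its adjusted p was 0.0795 with replicate 2 alone. Among 12 C/EBP and IRF factors, 3 were higher and 0 lower (25% and 0%). Cebpd, an early inflammatory transcription factor, went from 135 ± 51.4 to 616 ± 65.7 (SD, n = 3 each; log2 fold change 2.26 ± 0.28, adjusted p = 0.000163) and Cebpb from 173, 112 and 181 to 456, 535 and 486 (1.69 ± 0.23, adjusted p = 0.000267). Irf2 was also called (1.24 ± 0.36), and the call was lost in 5 of the 6 fits without 1 library and with replicate 2 alone (adjusted p = 0.16). Of 29 AP-1 and immediate-early factors, 2 were called higher and 1 lower, below the background share in either direction. Junb, an AP-1 subunit, rose from 286, 247 and 427 to 1333, 1648 and 1791 (2.34 ± 0.23, adjusted p = 3.42e-05) and Ier3 by 1.38 ± 0.26, while Zfp36l2, a destabilizer of AU-rich messages, fell by 1.34 ± 0.27.

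Interferon-stimulated genes rose in part. Of 46 tested, 15 were called higher and 2 lower (32.6% and 4.35%, against 8.9% and 8.97% over all genes). Their median was 0.72, and 0.76 against untreated replicate 2. Gbp5, a guanylate-binding protein of antibacterial defence, had 2, 0 and 0 normalized reads untreated and 48, 69 and 52 with LPS (5.30 ± 0.70, limma adjusted p = 0.000219). Isg15, a ubiquitin-like modifier, had 194 ± 37.9 against 722 ± 186 (SD, n = 3 each; 1.88 ± 0.24, limma adjusted p = 0.000179). Bst2, the membrane tether tetherin, had 343, 206 and 390 against 735, 864 and 968 (1.49 ± 0.25, adjusted p = 0.00108). Immunity-related GTPases went both ways. Iigp1, Tgtp2 and Ifi47 rose by 2.25 ± 0.61, 1.49 ± 0.45 and 1.12 ± 0.34, calls that held in 3, 2 and 1 of the 6 fits without 1 library, and Igtp was not called. Irgm1 had 633 ± 199 untreated and 206 ± 46.2 with LPS (SD, n = 3 each; −1.58 ± 0.26, limma adjusted p = 0.001; 0.0717 with replicate 2 alone), and Irgm2 fell by 0.98 ± 0.28 (0.351 with replicate 2 alone). Apart from Irgm1, these GTPases were chosen after their values were seen.

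Of 39 cytokine receptor and STAT pathway genes, 6 were higher and 3 lower (15.4% and 7.69%, against 8.9% and 8.97% over all genes). Ifngr1, a chain of the interferon-γ receptor, rose by 1.08 ± 0.24, and Jak1, its kinase, by 0.94 ± 0.24, and others called higher included Stat2, Tyk2 and Il1rl2. Osmr, the oncostatin M receptor, fell from 331 ± 32.7 to 155 ± 13.3 (SD, n = 3 each; −1.09 ± 0.21, limma adjusted p = 0.00301), beside Stat5b (−1.57 ± 0.32) and Il17rd. The median of this list was 0.47, and 0.29 against replicate 2. With replicate 2 alone the calls of Ifngr1, Stat2, Tyk2, Il1rl2, Stat5b and Il17rd were lost. Of 19 genes of MHC class I and antigen processing, 7 were higher and 1 lower (36.8% and 5.26%). Their median was 0.35, and 0.22 against replicate 2. The class I gene H2-T22 rose from 157, 191 and 150 to 459, 379 and 396 (1.31 ± 0.21, adjusted p = 0.000965). The peptide-loading genes Tapbp and Tap1 rose by 1.14 ± 0.21 and 1.17 ± 0.25. Psme2, a subunit of the proteasome activator that interferon induces, fell from 528, 552 and 618 to 237, 209 and 312 (−1.18 ± 0.22, adjusted p = 0.00203). Class I genes are close relatives, and reads may be divided among them.

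Of 21 acute-phase, complement and antimicrobial genes, 3 were higher and 1 lower (14.3% and 4.76%, against 8.9% and 8.97% over all genes). Their median was 0.31, and 0.44 against replicate 2. Serpina3g, a serine protease inhibitor of a family of close copies, had 18, 17 and 17 untreated and 98, 163 and 99 with LPS (2.68 ± 0.33, limma adjusted p = 0.000139). Ptx3, a soluble pattern-recognition protein, rose by 1.04 ± 0.22 (adjusted p = 0.0502 with replicate 2 alone) and Hp, haptoglobin, by 1.48 ± 0.36, while C1ra, a protease of the complement pathway, fell by 1.19 ± 0.22. Saa3, an acute-phase apolipoprotein, was already at 5480, 1529 and 5461 untreated and had 9539, 6130 and 6455 with LPS. It was not called (1.01 ± 0.49, adjusted p = 0.202), but against untreated replicate 2 alone the difference was 2.24 (adjusted p = 0.00198). Lcn2 (97, 24 and 37 against 124, 32 and 93) and Ptgs2, the inducible cyclooxygenase (596, 194 and 417 against 900, 262 and 771), overlapped between the groups and were not called (adjusted p = 0.453 and 0.508). Replicate 2 was the lowest library of its group for both genes, untreated and with LPS. Of 14 prostaglandin pathway genes, only the exporter Abcc4 was called (1.09 ± 0.28), and not with replicate 2 alone (adjusted p = 0.127).

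Of 14 adhesion and co-stimulation genes 3 were higher and 0 lower (21.4% and 0%, against 8.9% and 8.97% over all genes). Vcam1, a ligand for leukocyte integrins, went from 305, 231 and 459 to 901, 1064 and 956 (1.61 ± 0.24, limma adjusted p = 0.000583). Icam1 went from 8, 6 and 1 to 45, 85 and 19 (3.10 ± 0.69, adjusted p = 0.00659), and was not called with replicate 2 alone (0.0583). Cd44, the hyaluronan receptor, rose by 0.99 ± 0.20.

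**Figure D3:**
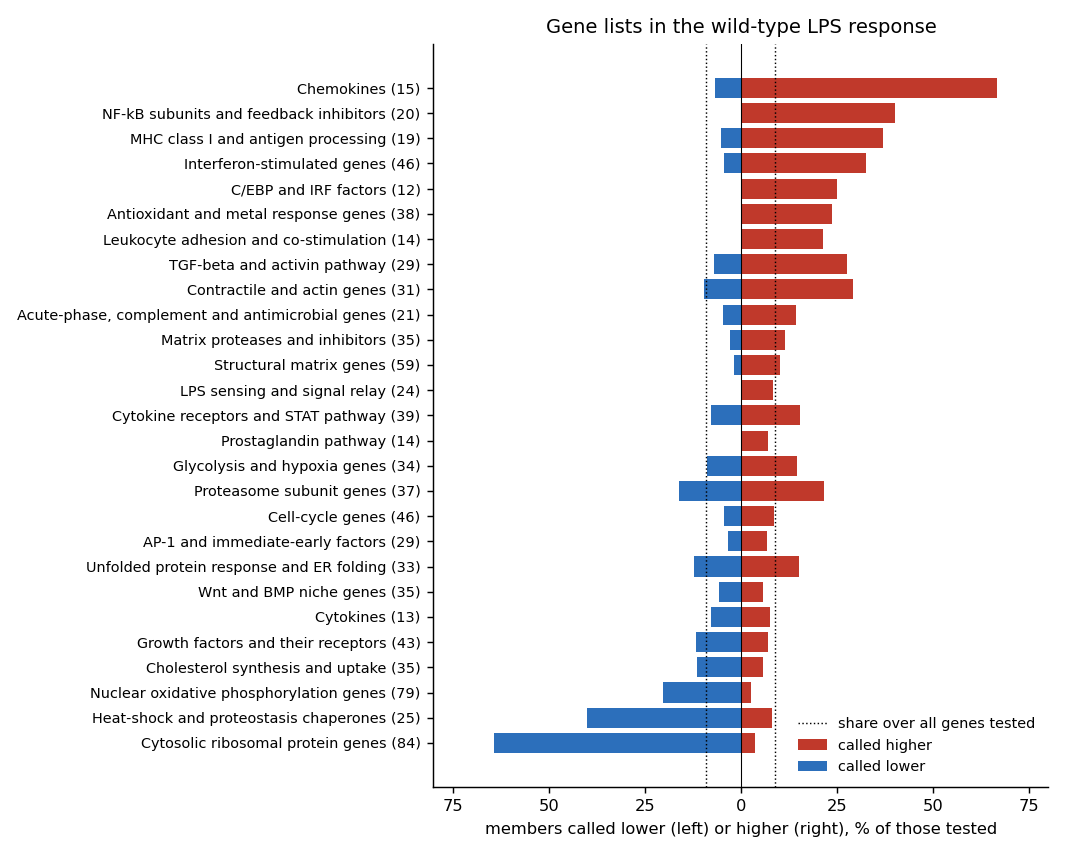
Share of the tested members called higher (red, right) or lower (blue, left) for 27 gene lists, with the number tested in brackets; dotted lines mark the share over all genes tested, 8.9% higher and 8.97% lower. Chemokines reach furthest to the right and cytosolic ribosomal proteins furthest to the left.

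Genes for cytosolic ribosomal proteins, the protein part of the ribosome, had the largest share called lower of the 27 lists. Of 84 tested, 54 were called lower and 3 higher, against 8.97% and 8.9% over all genes, with a median log2 fold change of −0.78. Against untreated replicate 2 alone the median was −0.97. Rps19, of the small subunit, had 6462, 8214 and 7266 normalized reads untreated and 1043, 1467 and 1744 with LPS (−2.39 ± 0.22, limma adjusted p = 2.25e-05). Rpl7, of the large subunit, had 7930, 8668 and 6414 against 1963, 2702 and 1903 (−1.82 ± 0.22, adjusted p = 0.000114). Rpl10a fell by 1.54 ± 0.20. The groups were far apart for each, and untreated replicate 2 lay with or above the other untreated libraries. Among the members called higher, named after their values were seen, were Rps20 (5224, 5274 and 5110 against 9619, 8790 and 11022) and Rpl27, and neither call held with replicate 2 alone (adjusted p = 0.0654 and 0.121). Naca, a chaperone subunit that binds chains leaving the ribosome, had 1707, 1925 and 1538 against 310, 327 and 309 (−2.44 ± 0.20, adjusted p = 1.74e-05).

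The MyD88ko libraries held lower values with LPS for these genes too. There Rps19 had 7926, 5585 and 6699 untreated and 2440, 2419 and 2291 with LPS, and Naca 1837, 1345 and 1286 against 408, 452 and 378. The median over 83 ribosomal protein genes was −0.79 in MyD88ko. Ribosomal protein genes have many near-identical processed pseudogenes, and how reads matching several copies were counted is not given in the sources used here. Of 55 tested pseudogenes named for a ribosomal protein, 19 were called higher and 14 lower, with a median of 0.31. Together these were 60%, against 17.9% over all genes. LPS and the library series cannot be told apart for these genes, and the part of reads shared with copies was not tested.

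Chaperones and mitochondrial genes fell in smaller part. Of 25 heat-shock and proteostasis chaperones, 10 were lower and 2 higher (40% and 8%, against 8.97% and 8.9% over all genes). Their median was −0.36, and −0.58 against replicate 2. Hspe1 and Hspd1, which form the mitochondrial chaperonin, had 1241, 1116 and 1179 against 303, 310 and 276 (−1.99 ± 0.19, limma adjusted p = 3.03e-05) and 710, 657 and 653 against 318, 308 and 308 (−1.11 ± 0.19, adjusted p = 0.00143). Hsph1, a co-chaperone of HSP70, fell by 2.04 ± 0.23 and Hspa2 by 1.44 ± 0.26. Those called higher were the cytosolic HSP90 genes Hsp90aa1 and Hsp90ab1, in 3 and 1 of the 6 fits without 1 library. Of 79 nuclear oxidative phosphorylation genes, 16 were lower and 2 higher (20.3% and 2.53%, median −0.23). Cox7c, a subunit of complex IV, had 1331, 1348 and 1460 against 350, 425 and 394 (−1.82 ± 0.19, adjusted p = 5.19e-05), and Uqcrfs1, the iron-sulfur protein of complex III, fell by 1.71 ± 0.20. Those called higher were Ndufa2 and Ndufa3, and neither held with replicate 2 alone (adjusted p = 0.0595 and 0.0838). Proteasome subunits were split, with 8 higher and 6 lower of 37 (21.6% and 16.2%). Psma3, of the core particle, fell from 1087, 1666 and 889 to 266, 292 and 303 (−2.03 ± 0.24, adjusted p = 0.000106). Psmd4, a ubiquitin receptor of the cap, rose from 729, 671 and 945 to 2143, 1674 and 2501 (1.43 ± 0.22, adjusted p = 0.000658).

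Contractile and actin genes rose in part. Of 31 tested, 9 were higher and 3 lower (29% and 9.68%, against 8.9% and 8.97% over all genes). Their median log2 fold change was 0.22 against all untreated libraries and 0.28 against untreated replicate 2. Tagln, an actin-binding protein of smooth muscle, had 2403, 2633 and 2586 against 8712, 6173 and 6177 (1.45 ± 0.21, limma adjusted p = 0.000344; 0.0147 with replicate 2 alone). Acta2, smooth-muscle actin, rose from 19984, 18144 and 17329 to 31563, 27106 and 30821 (0.69 ± 0.20, adjusted p = 0.0265), but the call was lost with replicate 2 alone (0.126) and in 5 of the 6 fits without 1 library. The cytoplasmic actins parted: Actg1 fell from 8299, 7407 and 7033 to 2731, 3008 and 3673 (−1.28 ± 0.20, adjusted p = 0.000765), whereas Actb rose from 17520, 15824 and 24539 to 37396, 27079 and 36856 (0.82 ± 0.23, adjusted p = 0.024, called in 2 of the 6 fits without 1 library). In MyD88ko, Actg1 was also lower with LPS (8541, 10488 and 7893 against 3251, 3836 and 3735), and Actb was lower too (34955, 35484 and 32920 against 26034, 29396 and 26600). The difference between the genotypes was not tested. The 9 listed of 10 markers of visceral smooth muscle summed to 6172 to 7104 untreated and 9719 to 10599 with LPS, and those of glia and neurons to 648 to 1038 and 1399 to 3028. Their part in these results was not tested.

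Of 59 structural matrix genes 6 were higher and 1 lower, 10.2% and 1.69% against 8.9% and 8.97% over all genes. Their median was 0.43 against all untreated libraries and −0.17 against replicate 2, which had the highest untreated level of many of them, and 0 were called with replicate 2 alone. Fbn1, fibrillin-1, had 927, 1655 and 696 against 2926, 3236 and 1825 (1.34 ± 0.31, limma adjusted p = 0.0109; 0.281 with replicate 2 alone). Lox, the collagen crosslinker, rose by 0.93 ± 0.20, Ltbp2 by 0.93 ± 0.22 and Mfap5 by 0.79 ± 0.20, and none of these held with replicate 2 alone. Col1a1, the main fibrillar collagen, had 27011, 52324 and 19270 against 35191, 60610 and 36670 and was not called (adjusted p = 0.335). LPS replicate 2 was likewise the highest LPS library for Col1a1 and Fbn1. The mesenchymal markers summed to 108322, 176728 and 122588 in LPS replicates 1, 2 and 3. The comparison with untreated replicate 2 thus includes LPS replicates 1 and 3, where these levels were lower than in LPS replicate 2. Whether equal numbers mark pairs was not settled. Matrix proteases and inhibitors gave 4 higher and 1 lower of 35 (11.4% and 2.86%). Adam17, Mmp10, Mmp13 and Timp2 rose and Adamts1 fell, but none of these calls held with replicate 2 alone. The list's median was 0.03 against all untreated libraries and −0.15 against replicate 2.

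The mesenchyme signals to its neighbours through TGF-β, BMP, Wnt and growth factor ligands. In the TGF-β and activin pathway 8 of 29 were higher and 2 lower (27.6% and 6.9%, against 8.9% and 8.97% over all genes). Their median was 0.39, and 0.4 against replicate 2. Inhba, which encodes activin A, rose from 69, 62 and 122 to 287, 173 and 396 (1.73 ± 0.33, limma adjusted p = 0.00305), as did its secreted antagonist Fstl3 (1.36 ± 0.28). The TGF-β receptor genes parted. Tgfbr1 fell from 140, 151 and 139 to 45, 94 and 66 (−1.12 ± 0.29, adjusted p = 0.0151; 0.14 with replicate 2 alone) and Tgfbr2 by 0.87 ± 0.26, whereas the co-receptor gene Tgfbr3 rose by 0.77 ± 0.24 (adjusted p = 0.0414; 0.117 with replicate 2 alone). Of 35 Wnt and BMP niche genes, 2 were higher (Foxf1 and Bmp2) and 2 lower (Wnt5a and Frzb), 5.71% in either direction. With replicate 2 alone Foxf1, Wnt5a and Frzb lost their calls (adjusted p = 0.0855, 0.114 and 0.116), and Frzb was called in 0 of the 6 fits without 1 library. Foxf1, a transcription factor of gut mesenchyme, had 115, 132 and 92 against 244, 246 and 262 (1.16 ± 0.23, adjusted p = 0.00341). Wnt5a, a non-canonical Wnt ligand, fell from 429, 494 and 458 to 244, 319 and 274 (−0.73 ± 0.21, adjusted p = 0.0242). Grem1, a BMP antagonist of the niche, had 4397, 3497 and 3075 against 4645, 3876 and 3777 and was not called (adjusted p = 0.602).

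Of 43 growth factors and receptors 3 were higher and 5 lower (6.98% and 11.6%, against 8.9% and 8.97% over all genes). Fgf7, keratinocyte growth factor, which mesenchyme makes for epithelium, rose from 43 ± 10 to 136 ± 29.4 (SD, n = 3 each; 1.65 ± 0.29, limma adjusted p = 0.00163). Pdgfrb, a receptor of pericytes and fibroblasts, fell from 883, 1135 and 1443 to 531, 543 and 513 (−1.10 ± 0.22, adjusted p = 0.00328), and both calls held with replicate 2 alone (0.0115 and 0.029). Pdgfra, the receptor that marks subepithelial fibroblasts, had 355, 611 and 314 against 383, 589 and 380 and was not called. Vegfc, a lymphatic growth factor, fell by 1.29 ± 0.26 (0.153 with replicate 2 alone).

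Antioxidant and metal response genes gave 9 higher and 0 lower of 38 (23.7% and 0%, against 8.9% and 8.97% over all genes). Their median was 0.38, both against all untreated libraries and against replicate 2. Hmox1, heme oxygenase, had 151, 115 and 154 against 448, 396 and 475 (1.65 ± 0.22, limma adjusted p = 0.00021), and the mitochondrial superoxide dismutase Sod2 had 480, 401 and 665 against 1245, 1236 and 1129 (1.25 ± 0.22, adjusted p = 0.0015). Of 33 genes of the unfolded protein response and ER folding, 5 were higher and 4 lower (15.2% and 12.1%). Sesn2, a stress-induced regulator of mTORC1, rose by 2.36 ± 0.37 and Manf by 1.38 ± 0.26, while Dnajb9, an ER co-chaperone, fell by 1.20 ± 0.21. Of 46 cell-cycle genes, 4 were higher and 2 lower, 8.7% and 4.35% against 8.9% and 8.97% over all genes. Cdkn1a, the inhibitor p21, went from 1014, 1003 and 889 to 4104, 3170 and 3451 (1.88 ± 0.20, adjusted p = 4.76e-05). The replication helicase genes Mcm4 (198 ± 27.6 against 66.3 ± 12.1, SD, n = 3 each) and Mcm6 fell by 1.57 ± 0.25 and 1.44 ± 0.23, with adjusted p of 0.0622 and 0.052 with replicate 2 alone.

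In glycolysis and the hypoxia response 5 of 34 genes were higher and 3 lower (14.7% and 8.82%, against 8.9% and 8.97% over all genes). Hif1a, the oxygen-regulated transcription factor, rose from 596, 498 and 626 to 1191, 1193 and 1063 (1.01 ± 0.20, limma adjusted p = 0.00309), and Pfkl, a phosphofructokinase, by 1.25 ± 0.23. Hk2, the inducible hexokinase, fell from 268, 182 and 223 to 41, 67 and 98 (−1.76 ± 0.31, adjusted p = 0.00144; 0.0861 with replicate 2 alone). Of 35 cholesterol genes, 4 were lower and 2 higher (11.4% and 5.71%), and none of the 4 lower calls held with replicate 2 alone. Idi1, an enzyme of the mevalonate pathway, fell from 243, 113 and 320 to 46, 45 and 65 (−1.99 ± 0.35, adjusted p = 0.00169; 0.146 with replicate 2 alone). The median of the cholesterol list was −0.32 against all untreated libraries and 0.12 against replicate 2, which had the lowest untreated level of Idi1 and of Hmgcs1.

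Away from the lists, the protein-coding genes with the widest gap between the groups included several that are not classical LPS targets. Prrc2a had 92, 76 and 62 against 537, 676 and 487 (2.87 ± 0.24, limma adjusted p = 1.74e-05). Zfp385a, a zinc-finger protein, had 47, 34 and 29 against 225, 321 and 360 (3.01 ± 0.28, adjusted p = 2.25e-05), and Scand1, Palm and Foxp4 rose by 2.74 ± 0.26, 2.73 ± 0.27 and 2.96 ± 0.37. All 5 had higher values with LPS in each MyD88ko library too: Prrc2a had 134, 124 and 113 against 332, 381 and 478, and Zfp385a 42, 63 and 65 against 188, 194 and 112. Snrpg, a core protein of the spliceosome's small nuclear particles, fell from 665, 737 and 613 to 124, 135 and 136 (−2.34 ± 0.20, adjusted p = 1.75e-05). Pdcd5 and Fbxl14 fell by 2.53 ± 0.23 and 2.54 ± 0.23. Ackr4, a scavenging receptor for chemokines, chosen after its values were seen, had 698, 1441 and 950 against 117, 153 and 196 (−2.69 ± 0.27, adjusted p = 4.23e-05), while MyD88ko cells had 743, 932 and 1003 against 523, 890 and 629.

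Among the steepest falls, untreated replicate 2 was mostly the lowest untreated library. Of 91 genes called at least 8-fold lower, 82 had their lowest untreated value in replicate 2, 53 were pseudogenes and 36 were listed at 0 in all LPS libraries. Over all 12280 genes tested, 756 were pseudogenes. How many of all genes had replicate 2 lowest, or 0 in all LPS libraries, was not counted. Called with replicate 2 as the only untreated library were 5 of these 91, against 25 of the 30 called at least 8-fold higher. Gata3, which specifies luminal epithelial and T-cell fates, had 957, 23 and 258 untreated and 3, 2 and 3 with LPS (limma adjusted p = 0.0322; 0.15 with replicate 2 alone). Eef1a2, an elongation factor of muscle and neurons, had 530, 15 and 120 and 0 in each library with LPS (limma adjusted p = 0.126 with replicate 2 alone). Prss8, an epithelial serine protease, had 87, 6 and 27, and Foxa1, a luminal and endodermal factor, 94, 1 and 38, and both were at 0 with LPS; neither was called with replicate 2 alone (adjusted p = 0.322 and 0.782). Markers of the liver fell in another pattern, present in all untreated libraries: Serpina1a had 63, 62 and 66 against 3, 6 and 13 (−3.14 ± 0.50, adjusted p = 0.000765; 0.0606 with replicate 2 alone), and Serpina3k 19, 188 and 57 against 0. In MyD88ko, Serpina1a had 64, 64 and 61 against 19, 8 and 4. The 13 hepatocyte markers in the wt table summed to 360 to 660 untreated and 152 to 295 with LPS. Conversely the intestinal epithelial genes Muc2, a mucin, and Defa24, a Paneth-cell defensin, were at 0 in the 3 untreated libraries. With LPS they had 16, 32 and 11 and 12, 9 and 27. They come from a list of 24 markers of which 7 were in the wt table, and Vil1, Cdx1 and Cdx2 were not. In MyD88ko, Muc2 had 0 untreated and 4, 0 and 11 with LPS. The part of such reads in the other results was not tested.

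**Figure D4:**
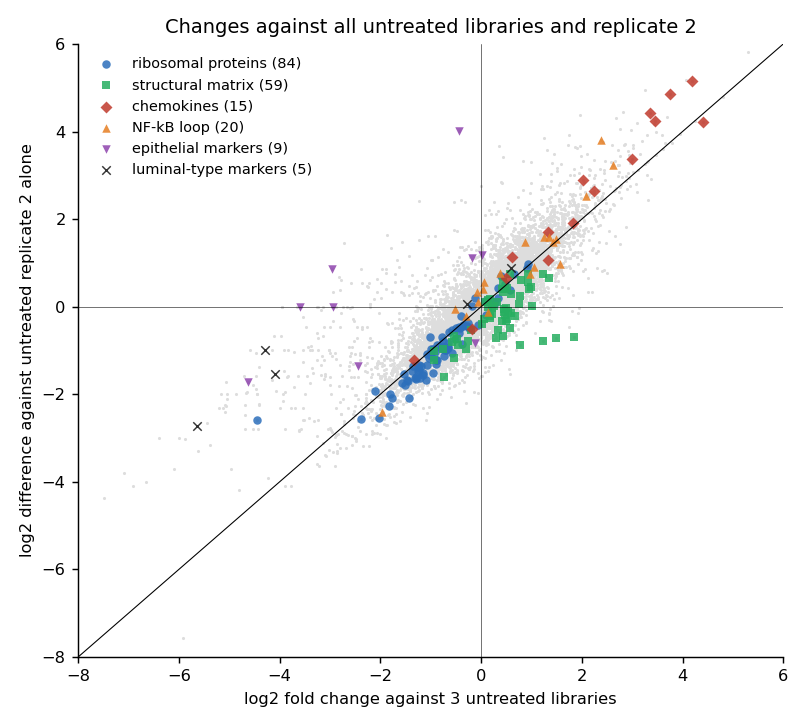
Log2 fold change against all 3 untreated libraries (horizontal) and log2 difference against untreated replicate 2 alone (vertical), 1 point per gene tested, with members of 6 lists in colour and a line where both are equal. Chemokines, the NF-κB loop and ribosomal proteins lie mostly near the line, many structural matrix genes below it, and the epithelial and luminal-type markers at the far left lie above it.

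Of 90 lincRNA genes tested, 5 were higher and 5 lower, below the shares of 8.9% and 8.97% over all genes. Gm20186 had 14, 8 and 4 normalized reads untreated and 227, 102 and 74 with LPS (3.78 ± 0.49, limma adjusted p = 0.00021), and Gm17501 rose by 2.00 ± 0.32. Gm20467 fell from 79, 126 and 71 to 13, 30 and 24 (−2.03 ± 0.38, adjusted p = 0.00237). Of 756 pseudogenes tested, 292 were called, or 38.6% against 17.9% over all genes, and 125 of them were lower.

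The direction of change moved with the GC content of the gene, as given in the authors' table. Among the 1123 protein-coding genes with the lowest GC content (33.7% to 39.8%), 3.56% were called higher and 10.1% lower, with a median log2 fold change of −0.14. In the 1123 with the highest GC content (54% to 71.3%), 16% were higher and 5.52% lower, with a median of 0.20. After the trend with GC content was taken out of each library, a step added after the data were seen, 1004 genes were higher and 1157 lower. Chemokines then had 10 called higher and 1 lower, the NF-κB loop 8 and 0, interferon-stimulated genes 13 and 2, and ribosomal proteins 2 higher and 56 lower. MHC class I genes had a median of 0.20 then, against 0.35 before, and AP-1 genes had 2 higher and 4 lower. Called higher then were 5 TGF-β and activin genes against 8 before, 6 contractile genes against 9 and 7 antioxidant genes against 9. Unfolded protein response genes had 3 against 5, and proteasome subunits 6 against 8. The count rose for LPS sensing (3 against 2), cytokine receptors and structural matrix (7 against 6 for either) and oxidative phosphorylation (3 against 2). What set the trend with GC content was not tested.

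**Figure D5:**
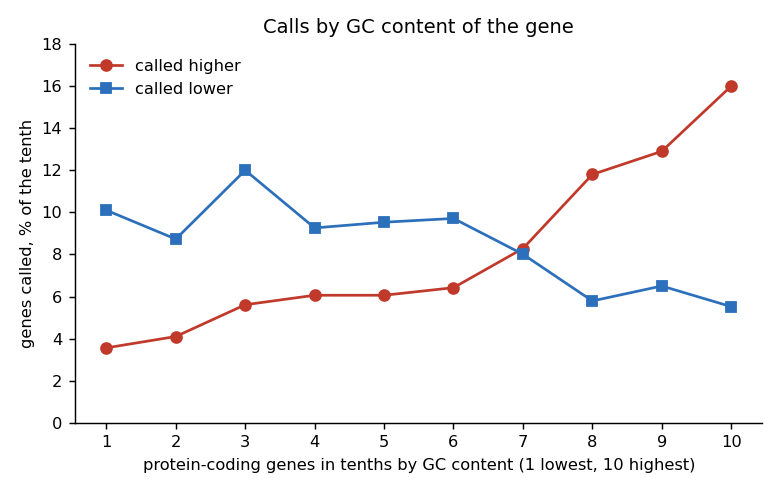
Share of protein-coding genes called higher (red circles) or lower (blue squares) in 10 groups of the genes ordered by GC content, with 1122 or 1123 genes in each. The share called higher goes from 3.56% in the lowest group to 16% in the highest, and the share called lower from 10.1% to 5.52%.

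For the same lists, the MyD88ko libraries gave these differences between LPS and untreated cells, described beside the wt values with no test between genotypes. The chemokines' median log2 fold change was 2.02 over 15 genes in wt and 2.11 over 12 in MyD88ko. That of the NF-κB loop was 0.92 over 20 and 0.78 over 19. It was 0.72 over 46 and 0.27 over 41 interferon-stimulated genes, and 0.35 over 19 and −0.08 over 18 MHC class I genes. The MyD88ko median of the chemokines lacks Ccl9, Ccl11 and Ccl20, and that of the interferon-stimulated genes lacks Gbp5, among others. The medians of the 2 genotypes thus cover unlike sets of genes. By level, Cxcl5 went from 3, 7 and 12 to 192, 354 and 279 in MyD88ko cells (log2 fold change 5.16). In wt it went from 464, 155 and 380 to 6242, 6439 and 4193 (4.19). Il6 had 2, 10 and 3 untreated and 8, 4 and 5 with LPS in MyD88ko, against 8, 5 and 15 and 50, 54 and 77 in wt. Myd88 itself was at 14, 8 and 10 untreated and 24, 22 and 5 with LPS in the MyD88ko libraries.

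The authors' deposited table, which used DESeq, gives 631 genes at its adjusted p under 0.05, 250 higher and 381 lower with LPS. Of these, 564 were also called here in the same direction.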

How the data were processed

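Libraries of 3′ mRNA (QuantSeq, Ion Proton) were made from sorted mesenchymal cells, per the labels' protocols. Values are normalized read counts that the authors rounded to whole numbers and deposited (a score, not raw counts, so no count model was used). TopHat2, Bowtie2 and DESeq, with the build mm10, are listed without versions or roles (per the submitters' processing notes). The authors' table also holds fold changes as ratios, p-values and adjusted p-values, used here only for counts of calls, and the GC content of each gene.

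Here log2(value + 1) of the 6 wt libraries was fitted with limma 3.58.1 in R 4.3.3 (trend, robust empirical Bayes, 4 residual degrees of freedom), over 12280 genes with a mean of at least 10 in either group. A fold change is on this scale and understates that of low genes. Every p is two-sided, and every adjusted p is limma's with Benjamini-Hochberg adjustment over all genes tested. A gene was called at an adjusted p under 0.05. Errors are standard errors unless given as SD. The method was tested on simulated data with known answers. MyD88ko values were described only. Depth was estimated from the steps of the deposited values, and limits low genes most. Promoters came from RefSeq's table. Tables and plots used Python 3.11.15, pandas 2.3.3 and matplotlib 3.10.9.

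The members and gene lists were chosen with earlier results of these data known. Genes named were the 12 protein-coding genes in each direction with the widest gap between groups and a mean of at least 20, up to 4 called members of each list with the smallest p, 19 genes of the LPS response and mesenchyme, the 8 genes in each direction with the widest excess between untreated replicate 2 and replicates 1 and 3, and 3 lincRNAs in each direction. Not all of these are printed. Other genes, such as the remaining called members of a list, Nfkb1, Tnfaip3 and Actb, were named after their values were seen. Alternatives were other scalings, filters, pseudocounts, a fit without trend, 12 libraries, a replicate block, each library left out, untreated replicate 2 alone and, chosen after seeing the data, removal of the trend with GC content.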

Additional observations from a re-analysis of the deposited data

How the results depend on the processing

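Against 2195 genes called (1093 higher, 1102 lower), limma without trend called 1371 (694 and 677). With untreated replicate 2 as the only untreated wt library it called 898 (567 and 331) with 4 libraries in the fit and 976 (562 and 414) with 10; the lone library is assumed to vary like the others. Leaving out 1 library at a time gave 1241 to 2046 genes, 591 to 1009 higher and 650 to 1095 lower, the lowest without LPS replicate 1; without LPS replicate 3, 711 were higher. The other scalings, filters and pseudocounts, the 12-library fit and the removal of the GC trend kept all 3 counts within 1.5 times. With the replicate block 2526 genes were called (1243 and 1283). The libraries' deviations from their group means correlated at 0.051, 0.146 and 0.058 between same-numbered libraries. Between the others they correlated at −0.09 to 0.038, and each library correlated best with its own number. These values do not settle whether the numbers mark pairs, and the main fit did not use them as pairs. Medians changed sign with replicate 2 alone, with 4 or 10 libraries, for structural matrix genes (−0.17), cholesterol genes (0.12), mesenchymal markers (−0.18) and mesothelial markers (0.78), and with 10 libraries for epithelial markers (0.14). The median of the macrophage markers ran from −0.05 (without LPS replicate 3) to 0.88 over the fits without 1 library. Krt19, not called, had a log2 difference of 4.01 with replicate 2 alone and 4 libraries. The causes were not tested. Of 140 named genes called, 70 were called in the same direction under every alternative fit run. With a mean of at least 50, 3 marker lists had no gene left and gave no median.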

Other observations

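Lrrc17, a secreted leucine-rich repeat protein of stromal cells, had the values 1171, 1710 and 9343 untreated and 45242, 28919 and 31326 with LPS (log2 fold change 3.70 ± 0.84, limma adjusted p = 0.0405). It was picked after its values were seen. Untreated replicate 3 stood above the other untreated libraries, and every LPS library stood above it.

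Markers of immune and endothelial cells were low in all 6 wt libraries. The 10 listed of 18 macrophage and myeloid markers summed to 63 to 84 untreated and 53 to 103 with LPS, and Ptprc and Adgre1 were not in the wt table. The 3 listed of 16 lymphocyte markers summed to 17 to 37 and 13 to 34, and the 4 listed of 15 endothelial markers to 81 to 106 and 113 to 131. The 7 listed of 24 intestinal epithelial markers summed to 5 to 15 untreated and 33 to 150 with LPS. The 2 listed mesothelial markers, Wt1 and Krt19, summed to 172, 17 and 74 untreated and 14 to 24 with LPS. Krt19 is also in the epithelial list, and had 76 ± 83.9 untreated and 16 ± 6.08 with LPS (SD, n = 3 each). It made up most of the sum in untreated replicate 1, 62 of the 74 in replicate 3 and 0 of the 17 in replicate 2. The sum is thus no separate measure of mesothelial cells.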
